A study of Populus trichocarpa and Populus tremula x Populus alba with 22 samples.

Results

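Young leaves were compared with 3rd internodes of the same Fe-sufficient poplar plants by RNA-seq. The comparison uses 6 of the 22 libraries of the series, 3 from young leaf and 3 from 3rd internode. They were chosen by their labels as control libraries of these tissues and were paired by the plant code in the labels, so that P11, P13 and P17 each gave 1 leaf and 1 internode library. All were Populus trichocarpa plants grown hydroponically with 10 µM Fe for 21 days, and the labels name no transgene for them. The labels state no age for these plants. The same tissues of plants P7, P22 and P30, grown with 0 µM Fe for 21 days, served to show whether a tissue difference was also present in other plants. They also served to test whether it differed between Fe levels. Leaf (3 libraries) and stem (2 libraries) came from empty-vector plants of the hybrid Populus tremula x Populus alba, 4 months old. These served to show the tissue difference in other plants and to choose gene sets. The empty-vector plants differ from the P. trichocarpa plants in species, age and stem part. RNA kit and library type differ too: poly(A)-selected Illumina libraries were made for the Fe experiment, and strand-specific DNBSEQ mRNA libraries for the empty-vector plants.

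A young leaf builds a blade of mesophyll between layers of epidermis and assembles the photosynthetic apparatus, while veins run through it. An internode is the stem stretch between leaves, with epidermis and green cortex around phloem, cambium and xylem, and it carries water and sugars and gives support. Both organs thus hold vascular and chloroplast-bearing cells, in different proportions. In bulk RNA, fewer cells of a type and less RNA per cell cannot be told apart.

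Genes are given by ID, because no gene name stands beside an ID in the files, and 0 of the 42950 IDs matched the RefSeq gene table used here. The 27 gene list rules written for photosynthesis, wood formation, vascular tissue and other topics could therefore not be filled, and the tissue labels could not be checked against marker genes. Leaf and internode libraries held 47002181 to 53860399 and 29840597 to 61396026 reads, and 31719 to 31870 and 31338 to 32487 genes with at least 1 read. Reads of 32263 genes were found in both tissues, and 7323 genes had none in any of the 6 libraries. Levels are given in CPM, reads scaled to library depth after the 6 libraries were normalized together by TMM, which assumes that most genes do not differ. CPM is not corrected for gene length.

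Leaf and internode values come from separate tables that the authors scaled on their own, and only the leaf headers name StringTie gene counts, so a difference in counting between the tables cannot be told apart from the tissue. The low counts of both tables looked alike. In leaf libraries 386 to 419 genes had exactly 1 read and 731 to 740 had 2, and in internode libraries 396 to 477 had 1 and 669 to 780 had 2. Exactly 3 reads were held by 458 to 487 genes in leaf libraries and 436 to 473 in internode libraries. In each library 2 reads were thus more frequent than 1 or 3. Genes with 0 reads in all 6 internode libraries of the Fe experiment but at least 20 CPM in its young leaves numbered 4, and 0 of these reached 20 CPM in empty-vector stems. The reverse pattern, 0 reads in all 6 young leaf libraries and at least 20 CPM in internodes, held for 21 genes, of which 0 reached 20 CPM in empty-vector leaves. These counts cannot decide whether the tables were counted alike. The genes are few and were chosen as high in a single tissue, and the empty-vector plants are another species. The share of other genes high in that tissue that reached 20 CPM was not counted.

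The tissues differed in a large part of the transcriptome. Of 27193 genes tested, those with at least 0.5 CPM in at least 3 of the 6 libraries, 6959 were higher in young leaf (25.6%) and 5918 were higher in the 3rd internode (21.8%) by limma with the plant as a block (adjusted p under 0.05). The remaining 14316 genes (52.6%) were not called. All 12877 called genes differed in the called direction in each of the 3 plants. Of all genes tested, 74.1% differed in a single direction in all 3 plants. For 94.9% of the called genes the leaf and internode libraries did not overlap, against 60.3% of all genes tested. The calls were made from the same libraries, so these shares are a description. The split between the tissues depends on the scaling. Calls higher in leaf made up 54.0% of calls with TMM, 51.3% with DESeq2 size factors, 47.3% with quantile normalization, 46.6% with upper-quartile scaling and 32.6% with total-count CPM. The median log2 change of all genes was -0.37 with total-count CPM, against 0.01 with TMM. With the deposited values as they are, where both the scaling and the pseudocount (10) differ, the share was 39.6%. Without plant P13, 4065 genes were called higher in leaf and 2859 higher in internode.

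**Figure D1:**
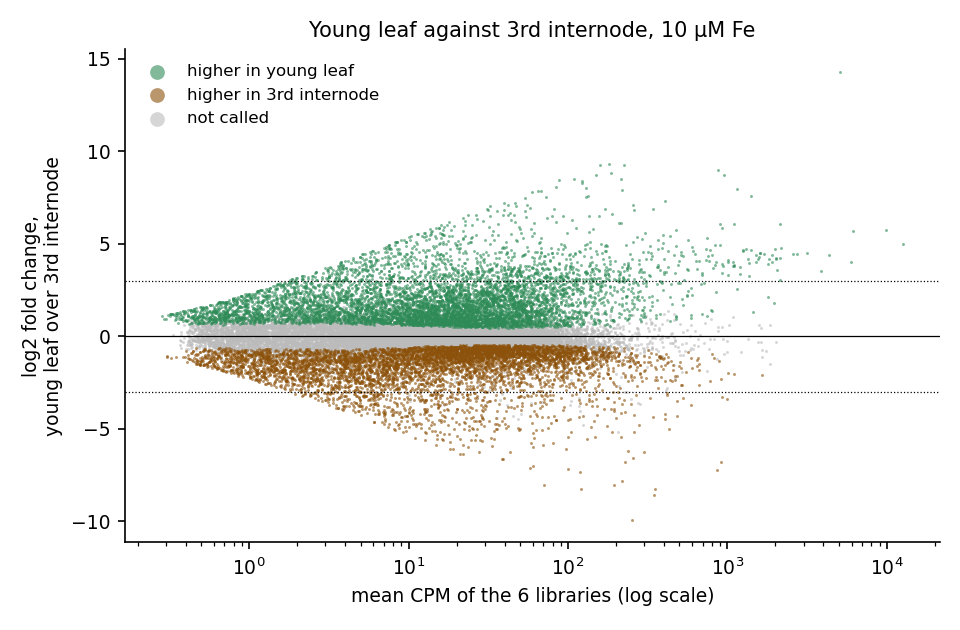
Each point is 1 of 27193 tested genes, with its mean CPM over the 6 libraries (log scale) against its log2 fold change, young leaf over 3rd internode. Green points were called higher in leaf (6959) and brown points higher in internode (5918) by limma, and dotted lines mark 8-fold, past which green points outnumber brown ones by 1133 to 586.

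Large differences were more often on the leaf side. By limma, 1133 genes were called and at least 8-fold higher in leaf (4.17% of genes tested) and 586 at least 8-fold higher in internode (2.15%). At 64-fold or more the counts were 76 and 27. The median log2 fold change was 1.55 among genes called higher in leaf (quartiles 1.00 and 2.45) and -1.34 among genes called higher in internode (quartiles -2.02 and -0.94). The count of 8-fold genes was larger for leaf than for internode under each of the 18 settings, most narrowly with total-count CPM, at 830 and 799. Its size depends on the pseudocount, since 726 and 289 genes passed 8-fold with a pseudocount of 2, and 1528 and 973 with a pseudocount of 0.1. By edgeR the counts were 1695 and 1090, and by DESeq2 1696 and 1200.

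From 1 CPM upward, the 8-fold genes were more one-sided towards leaf among more abundant transcripts. Among the 69 tested genes with a mean of at least 1000 CPM, 52 were higher in leaf, 48 of them at least 8-fold, and 3 were higher in internode, 0 of them 8-fold. Between 100 and 1000 CPM, 535 of 1647 genes were higher in leaf and 497 in internode, with 237 and 73 at least 8-fold. Between 10 and 100 CPM the calls were 3768 and 2975 of 14069 genes, with 576 and 294 at least 8-fold. Between 1 and 10 CPM the calls were nearly even, at 2127 and 2109 of 9580 genes, with 272 and 219 at least 8-fold. Below 1 CPM they were not even, at 477 and 334 of 1828 genes. There 0 genes were 8-fold apart in either direction, which the pseudocount makes hard to reach at that level. Over all genes tested, 25.6% were called higher in leaf and 21.8% in internode, and 4.17% and 2.15% were at least 8-fold higher. The mean that sets a class is taken over the libraries that made the calls. A gene can thus enter a high class through its higher tissue alone, and the trend is a description.

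Genes whose fold change was bounded to a small size were also counted, whether or not they were called. A 95% interval of the fold change that lay wholly within 2-fold was found for 8897 of the 27193 genes (32.7%), and for 6021 of the 15785 genes with a mean of at least 10 CPM (38.1%). Within 1.41-fold the interval lay for 786 genes (2.89%). A gene can be both called and within 2-fold. Potri.001G033200, for example, was called higher in leaf (limma adjusted p = 0.0314), with an interval of 0.176 to 0.899 on the log2 scale. The counts over all genes also include low genes, whose folds the pseudocount shrinks. For a gene not called and outside these counts, a difference of 2-fold or more still lies within the interval.

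The named genes are those with the largest called fold change in each direction among genes of at least 20 CPM in the higher tissue and no overlap between the tissues. What their products do is not annotated in the files or in the reference table. Potri.001G348900 had 8327, 9810 and 12329 CPM in the leaves of P11, P13 and P17, and 0 reads in each of the 3 internodes. That is 1301078 reads among the 3 leaf libraries against 0 among 141625270 reads of the internode libraries. The mean leaf level is at least 170039-fold higher than the mean floor, set at 3 reads per internode library. This bounds the ratio of the means and not that of each plant. Limma called the gene (adjusted p = 0.000206, n = 3 plants). The floor is 0.000588% of the leaf level, and it covers counting error only, as all floors and read intervals here do. These bounds take each read as independent. Whether the mates of a paired-end fragment were counted apart was not tested. If they were, the bounds are too tight. The transcript was thus detected in every leaf and in no internode of the Fe-sufficient plants.

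Potri.017G041700 showed the same pattern at a lower level. It had 314, 154 and 617 CPM in the leaves of P11, P13 and P17 and 0 reads in each internode. The mean leaf level was at least 6059-fold higher than the mean internode floor, again a bound on the means only. Limma called the gene (adjusted p = 0.000788, n = 3 plants). Its leaf mean was 362 ± 235 CPM (SD, n = 3), with P17 the highest and P13 the lowest plant.

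Potri.013G119800 was an internode transcript. It had 0 reads in the leaves of P11 and P13 and 1 read in that of P17, against 601, 481 and 430 CPM in the internodes of P11, P13 and P17. The ratio of internode over leaf was 63234 (exact binomial 95% interval 11349 to 2497657, counting error only), and limma called the gene (adjusted p = 0.000465, n = 3 plants). Its internode levels were close together, at 504 ± 87.5 CPM (SD, n = 3).

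Potri.002G223100 was detected in both tissues. It had 0.903, 0.715 and 1.55 CPM in the leaves and 284, 558 and 1232 CPM in the internodes of P11, P13 and P17. The mean was 1.06 ± 0.439 CPM in leaf and 691 ± 488 CPM in internode (SD, n = 3 each), 654-fold higher in internode (log2 fold change -8.58 ± 0.33 SE, limma adjusted p = 0.000774). P17 was the highest plant in both tissues. The leaf and internode libraries did not overlap, as the rule for the named genes requires. The 4 named genes kept their direction and their call under the 17 alternatives tried, with adjusted p from 1.04e-135 by DESeq2 to 0.0121 by limma without P13.

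**Figure D2:**
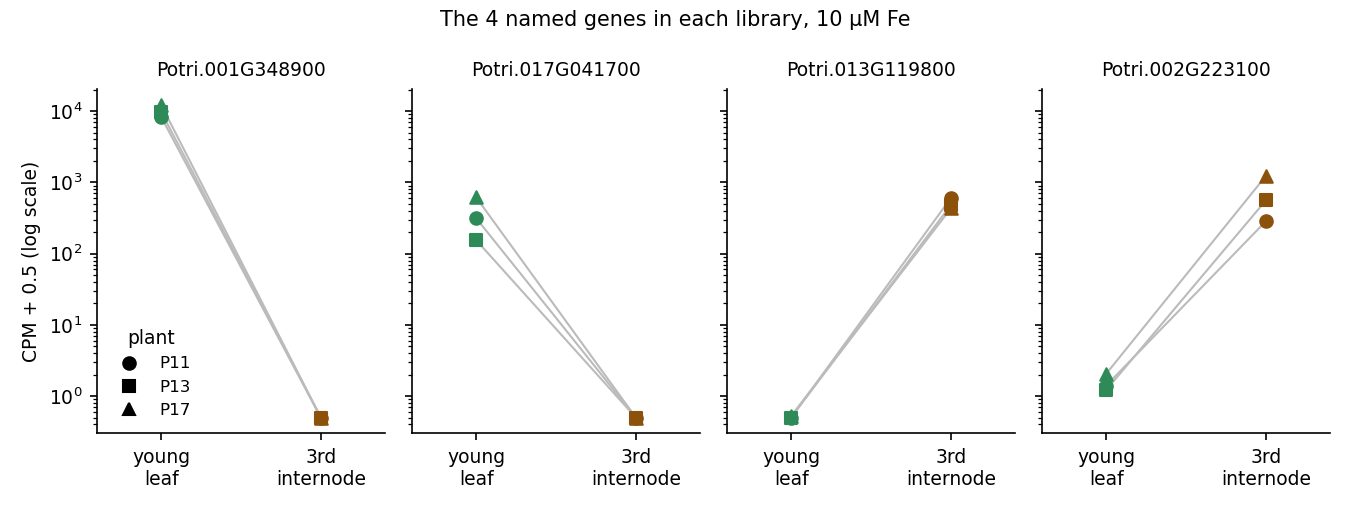
CPM + 0.5 (log scale) of the 4 named genes in young leaf (green) and 3rd internode (brown), with a symbol per plant and a grey line joining the 2 libraries of a plant. In each panel all 3 lines run the same way, which is fixed by the rule of no overlap that chose the genes. Leaf is at 8327 CPM or more and internode at 0 for Potri.001G348900. For Potri.002G223100 leaf is at 1.55 CPM or less and internode at 284 CPM or more.

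Genes found in a single tissue extend the pattern of the named ones. With 0 reads in the 3 internodes and at least 20 CPM in leaf, 20 genes met the leaf side, and 20 of these had reads in all 3 leaves. Their leaf means ran from 20.1 to 10155 CPM with a median of 33.5. With 0 reads in the 3 leaves and at least 20 CPM in internode, 24 genes met the internode side, and 23 of these had reads in all 3 internodes. Their internode means ran from 21.0 to 241 CPM. These sets were chosen by the same libraries, so the counts are a description.

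The 2 sets were then looked up in libraries that did not choose them. Of the 20 leaf genes, 2 had a read in the Fe-deprived internode of P22, 2 in that of P30 and 11 in that of P7, where the highest had 102 reads. That gene was Potri.001G348900, at 1.77 CPM in the P7 internode against 8432 CPM in the P7 leaf. Of the 20, 7 had no read in any of the 3 Fe-deprived internodes. In empty-vector stems, 15 of the 20 had no read, and the highest count of the others was 35 reads. Of the 24 internode genes, 14 had no read in the 3 Fe-deprived leaves and 15 had none in the empty-vector leaves. The highest count of any of the 24 was 26 reads in a Fe-deprived leaf and 83 reads in an empty-vector leaf. The share of all genes with no read in those libraries was not counted. A gene with no read may also be undetected in both tissues of those plants. Of the 586 genes at least 8-fold higher in internode, 61 had no read in empty-vector stems. Of the 1133 at least 8-fold higher in leaf, 23 had none in empty-vector leaves.

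Reads were concentrated on fewer genes in leaf. The 10 most abundant genes of a library held 9.14%, 9.05% and 10.2% of its reads in the leaves of P11, P13 and P17, and 2.50%, 3.01% and 2.73% in their internodes. The groups did not overlap, and the exact permutation test within plants gave p = 0.25, the smallest that 3 pairs allow (two-sided, 3 of 3 plants higher in leaf). The number of genes holding 50% of the reads was 1056, 1035 and 853 in leaf and 2007, 2033 and 1637 in internode. By this count P17 had the most concentrated library in both tissues.

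**Figure D3:**
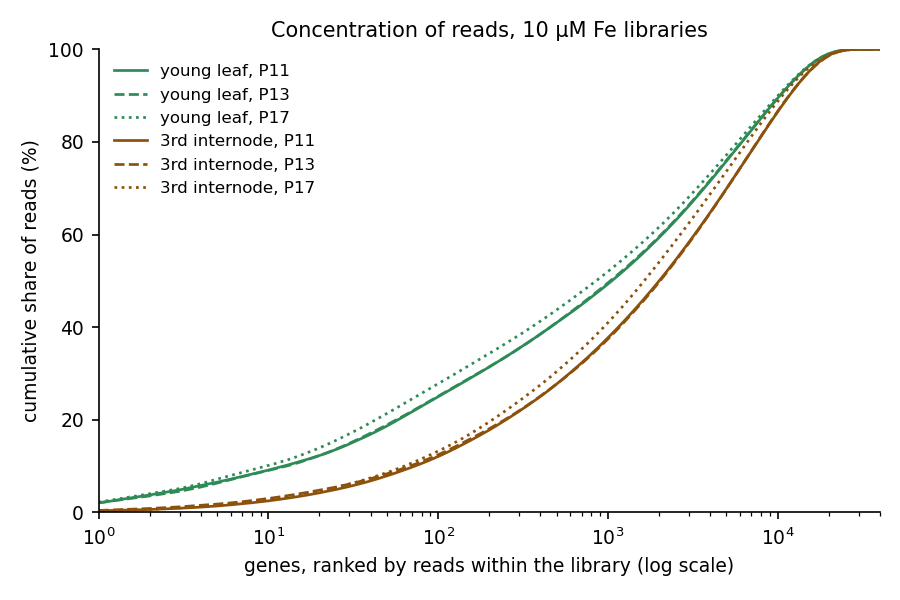
Cumulative share of reads (%) against genes ranked by reads (log scale), 1 line per library, green for young leaf and brown for 3rd internode, with a line style per plant. The 3 leaf lines lie above the internode lines at rank 10 (9.05% to 10.2% against 2.50% to 3.01%) and approach them at high ranks.

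A single gene, Potri.017G114600, singled out here after its values were seen, was the most abundant in each of the 3 leaf libraries. It held 2.04%, 2.08% and 2.23% of leaf reads in P11, P13 and P17 and 0.115%, 0.0706% and 0.0823% of internode reads. Its mean was 24362 ± 1623 CPM in leaf and 776 ± 181 CPM in internode (SD, n = 3 each; limma adjusted p = 0.00572). The most abundant internode genes were a different group: 0 of the 10 genes with the highest mean level in leaf were among the 10 of internode, and 20 of the top 100 and 395 of the top 1000 were shared. Of the top 100 leaf genes, 86 were called higher in leaf and 77 were at least 8-fold higher. Of the top 100 internode genes, 50 were called higher in internode and 16 were at least 8-fold higher, while 6 were higher in leaf. Over all genes tested, 25.6% were called higher in leaf and 21.8% higher in internode. At least 8-fold higher were 4.17% and 2.15%. Each list was ranked by the level in its own tissue, in the libraries that made the calls. A lean towards that tissue is thus built in, and these counts are a description.

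Gene groups were also described by their share of the reads of each library. The 1133 genes at least 8-fold higher in leaf held 32.2%, 32.8% and 36.4% of the leaf reads of P11, P13 and P17, and 3.1%, 2.54% and 1.60% of their internode reads. The 586 genes at least 8-fold higher in internode held 0.231%, 0.289% and 0.229% of the leaf reads and 4.99%, 6.02% and 7.93% of the internode reads. Since these libraries chose the genes, after TMM scaling, the shares are a description.

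The tissue difference was then read in genes chosen on other plants. These sets, defined with earlier results of these data known, were genes at least 8-fold apart between empty-vector leaf and stem and at 20 CPM or more in the higher of them. The leaf set held 1702 genes, of which 1684 were tested here. Of these 1684, 1424 were higher in young leaf, 53 were higher in internode and 207 were not called. Their median log2 was 2.48 beside 0.01 for all genes tested. The stem set held 1116 genes, of which 990 were tested here. Of these 990, 51 were higher in young leaf, 576 were higher in internode and 363 were not called, with a median log2 of -1.29. Measured against the 25.6% and 21.8% of all genes, 84.6% of the leaf set were called higher in leaf and 58.2% of the stem set higher in internode. Both sets thus leaned towards the tissue of their label among the genes tested, the stem set less fully than the leaf set.

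By library, the leaf set held 41.7%, 42.1% and 44.6% of reads in the leaves of P11, P13 and P17, and 12%, 11.4% and 8.67% in their internodes. The stem set held 1.69%, 1.64% and 1.67% of leaf reads and 6.03%, 5.51% and 7.47% of internode reads. Neither set overlapped between the tissues. Among the internodes, P17 had the lowest share of the leaf set and the highest of the stem set.

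**Figure D4:**
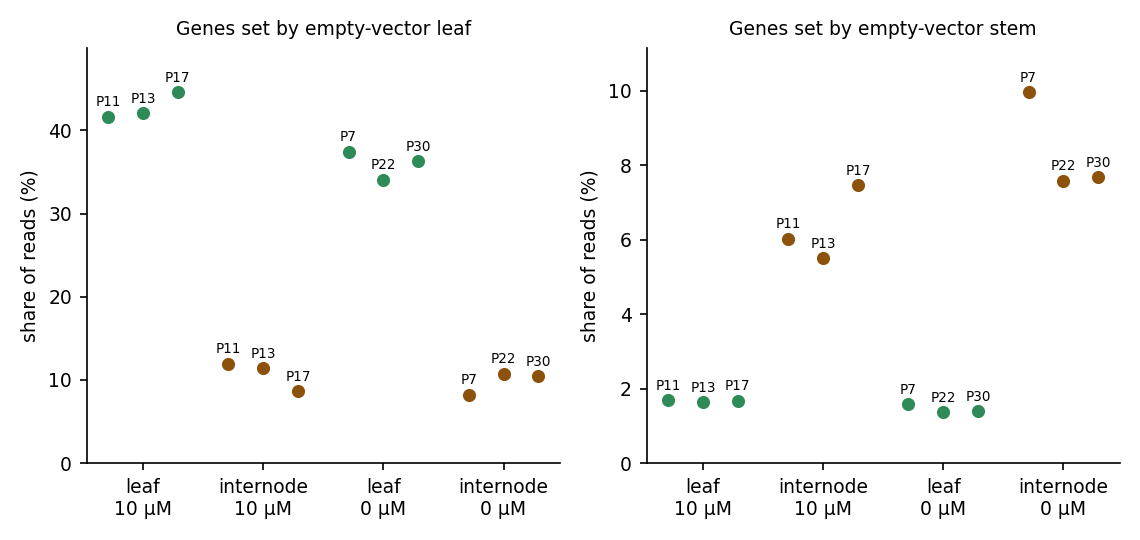
Share of reads (%) held by genes set by empty-vector leaf (left) and by empty-vector stem (right) in the young leaf (green) and 3rd internode (brown) libraries of plants at 10 µM and 0 µM Fe, 1 point per library with its plant code. At 10 µM Fe the leaf set takes 41.7% to 44.6% of reads in leaf and 8.67% to 12% in internode, and the stem set 1.64% to 1.69% in leaf and 5.51% to 7.47% in internode.

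Genes called in the Fe-sufficient plants were followed into the empty-vector plants in turn. Of the 1133 genes at least 8-fold higher in young leaf, 1061 were tested there, and 95.8% of these were higher in leaf than in stem. Of the 586 genes at least 8-fold higher in internode, 471 were tested there, and 76.4% of these were higher in stem than in leaf. The untested genes are in neither share. Over all genes tested in both, the direction was the same for 66.1%. In that contrast limma called 37.7% of genes higher in leaf and 34% higher in stem. Potri.002G223100 had 0.985, 0.902 and 1.17 CPM in empty-vector leaves and 1266 and 522 CPM in the stems. Potri.013G119800 had 1 read in the 3 leaves and 0 reads in both stems, although it stood at 430 CPM or more in each Fe-sufficient internode. An internode gene of the P. trichocarpa plants was thus not detected in stems of the hybrid.

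The 3 plants did not show the tissue difference to the same extent. At least 8-fold apart within the plant and higher in leaf were 949 genes in P11, 1097 in P13 and 1560 in P17, and higher in internode were 563, 658 and 976. The internode libraries accounted for more of the spread between plants than the leaf libraries. The median over genes of the SD between plants on the log2 scale was 0.21 in leaf and 0.31 in internode, and the SD was larger in internode for 67.3% of genes. Among genes of at least 10 CPM, the P11 and P17 internodes were more than 4-fold apart in 742 of 15785 genes (4.70%), against 193 (1.22%) for the leaves of these plants. The gap was smaller for the other pairs, at 2.08% of internode and 1.37% of leaf genes for P11 and P13, and 1.31% and 0.729% for P13 and P17. Depth differed more among internodes, with P11 the shallowest library. After all libraries were thinned to its depth the medians were 0.22 and 0.31, and 66.3% of genes had the larger SD in internode. A plant has a single library per tissue, so a difference between plants cannot be told apart from a difference between libraries. The internode samples of P17 and P7 are numbered apart from the other samples of the series. Whether they were prepared apart was not tested.

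The same contrast was put to the Fe-deprived plants, whose libraries took no part in the calls at 10 µM Fe. Of the 6754 genes called higher in leaf and also tested there, 6420 (95.1%) were higher in leaf at 0 µM Fe, 5356 (79.3%) were called by limma, where 25.5% of all genes tested were, and 89 were called in the opposite direction. Of the 5857 genes called higher in internode, 5728 (97.8%) were higher in internode, 4691 (80.1%) were called, where 28.6% of all genes tested were, and 14 were called opposite. Of the genes at least 8-fold apart at 10 µM Fe, 1099 of 1124 were higher in leaf and 578 of 581 higher in internode in all 3 Fe-deprived plants. The share of all genes tested with the same direction at both Fe levels was not counted. These direction counts therefore have no background beside them.

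**Figure D5:**
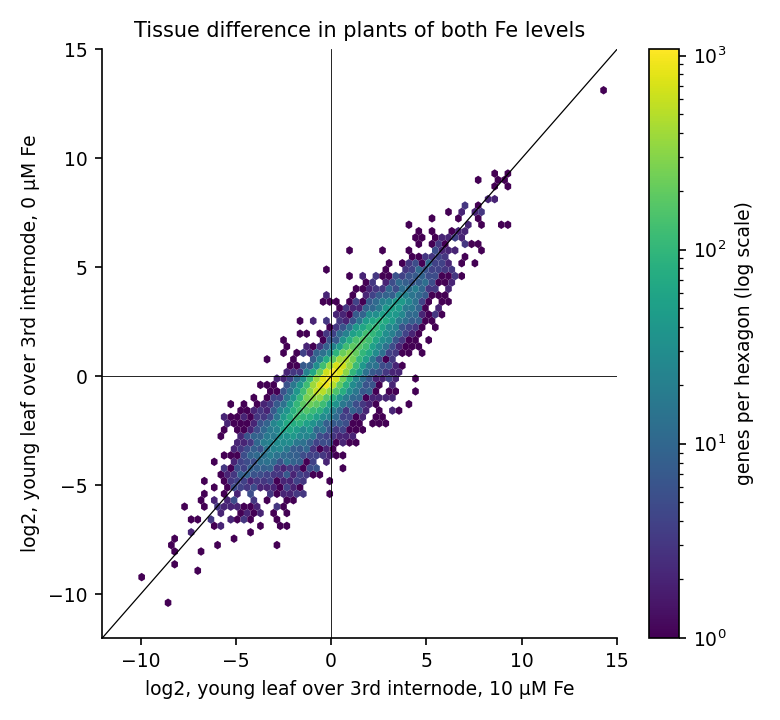
Log2 fold change, young leaf over 3rd internode, at 10 µM Fe (x) against 0 µM Fe (y) for 26668 genes tested at both levels, as counts of genes per hexagon (log colour scale), with the diagonal and zero lines drawn. Most genes lie along the diagonal, and the point at the upper right is Potri.001G348900, with 14.29 at 10 µM and 13.12 at 0 µM Fe.

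Of 28134 genes, the signed log2 difference of leaf minus internode was larger at 10 µM than at 0 µM Fe for 358 (1.27%). It was smaller for 110 (0.391%) by a limma test of the difference itself. For a gene higher in internode, a larger signed value is a smaller tissue gap. Potri.002G223100, for example, had -8.58 at 10 µM and -10.39 at 0 µM Fe. The total of 468 was 32 without P13 and 18 to 23 without P7, P22 or P30. The 4 named genes had the same direction at 0 µM Fe (limma adjusted p from 5.3e-06 to 1.58e-05, n = 3 plants). The leaf minus internode difference at 10 µM Fe minus that at 0 µM Fe was 1.29 ± 0.50 SE for Potri.001G348900 and 1.74 ± 0.40 SE for Potri.002G223100 (limma adjusted p = 0.235 and 0.0824). It was 0.60 ± 0.59 SE for Potri.017G041700 and -0.82 ± 0.24 SE for Potri.013G119800 (limma adjusted p = 0.64 and 0.137). These differences did not pass the test, which does not show that Fe leaves the tissue difference as it is.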

How the data were processed

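RNA was sequenced as 150 bp paired-end reads. What the authors deposited is 1 signal value per gene and library, named normalized counts per the labels. The submitters' processing notes list DESeq2 2.11.40.7, StringTie 2.2.1 and HISAT2 2.2.1, with no roles. The sources used here give no genome build, strand setting or treatment of overlapping or near-identical genes, so values of such genes are uncertain. The IDs of the leaf table end in v3.1 and those of the internode table carry no version.

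Each column was divided by its smallest value above 0, which gave whole numbers for 100% of values (tolerance 0.001). These are called reads, and they may be rounded estimates. The 6 columns were scaled together by TMM (edgeR 4.0.16). The test was two-sided, in limma 3.58.1 under R 4.3.3, on log2(CPM + 0.5) with trended variance and the plant as a block, and p-values were adjusted by Benjamini-Hochberg over 27193 genes at a threshold of 0.05. This scale understates the change of low genes. The block rests on the plant codes alone. Deviations of the leaf and internode of a plant correlated at 0.40 for P11, 0.21 for P13 and -0.04 for P17 over 15785 genes, and those of the P13 leaf and the P17 internode at 0.40, so the values lend the pairing no support. The tissue difference at 10 µM and 0 µM Fe was compared on each plant's own difference of leaf minus internode. Alternatives were edgeR and DESeq2 1.42.0 on the reads, other scalings, pseudocounts and filters, thinning, no block and leaving out each plant. The fits were tested on simulated data.

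With no gene names, the fixed rule names 2 IDs per direction. The comparison and the lists were chosen with earlier results of these data known. Overexpression libraries were not used.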

Additional observations from a re-analysis of the deposited data

Results flagged for a closer look

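The leaf minus internode difference differed between plants at 10 µM and 0 µM Fe, by a limma test of the difference itself, for 468 of 28134 genes (adjusted p under 0.05). As a signed value, the difference was larger at 10 µM Fe for 358 genes (1.27% of genes tested) and smaller for 110 (0.391%). These are not counts of wider and narrower tissue gaps, since a larger signed value is a smaller gap in internode genes. Of the 468, 275 had the same sign at both Fe levels and 193 the opposite sign, and 291 were also called in the tissue comparison at 10 µM Fe. At an unadjusted p under 0.05 there were 4944 genes. The count was 684 without P11 and 705 without P17, but 32 without P13, 18 without P7 and 23 without P22 or without P30, so it rests on few plants.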

How the results depend on the processing

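The values below were obtained by changing 1 choice at a time, except that the deposited values also took another pseudocount (10). The plant pairing comes from the labels. With no replicate block, 7070 genes were higher in leaf and 6025 in internode, and 93.3% of the 12877 calls were shared, so the block moved no count by over 1.5 times. At 0 µM Fe the counts were 7042 and 7891 with the block and 7371 and 8384 without the replicate block. Leaving out a plant gave 4065 to 5878 calls higher in leaf and 2859 to 5049 higher in internode, the lowest without P13, and 976 to 1278 and 542 to 704 genes at least 8-fold higher. At 0 µM Fe it gave 5643 to 8738 and 6029 to 9463 calls. For the difference between Fe levels it gave 18 to 705 genes. Total-count CPM gave 10041 genes higher in internode. A 2-fold minimum (limma treat) left 2643 higher in leaf and 1381 in internode, 65.7% of calls on the leaf side. Genes at least 8-fold higher in internode numbered 997 with the deposited values, 973 with a pseudocount of 0.1, 289 with a pseudocount of 2, 1090 by edgeR and 1200 by DESeq2, and genes 8-fold higher in leaf 726 with a pseudocount of 2. The cause was not tested, apart from the pseudocount, which shrinks folds by construction. Genes called in both kept their direction under each setting. Depth limits statements on absent transcripts to the floors given. The alternatives for the 8-fold counts and for leaving out plants in the Fe comparison were chosen after seeing the data.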

Other observations

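By the order of the numbers in their IDs, neighbouring genes were often higher in the same tissue. In 18094 pairs of neighbouring IDs with both genes tested, the next gene was higher in leaf for 32.3% of the genes called higher in leaf, against 25.7% of all pairs. It was higher in internode for 27.7% of the genes called higher in internode, against 21.5%. For genes at least 8-fold higher the shares were 8.82% against 4.32% in leaf and 11.9% against 2.07% in internode. Neighbours can be near-identical copies that share reads, and the part of such copies in these shares was not tested. Runs of 3 or more consecutive 8-fold genes numbered 3 in leaf and 5 in internode, with 4 genes in the longest. Across the 19 numbered groups of IDs, 23.6% to 29.2% of genes tested were higher in leaf and 18.7% to 24.6% were higher in internode.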
